A study of Mus musculus with 60 samples.

Results

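A 1 Mb window of mouse chromosome 3 (build mm9, the 1 Mb from position 95000000) held more translocation junctions in B-lymphoma cells without AID than in wild-type cells. Its members were all junctions on that chromosome with a listed position inside the window, on both strands, in all 60 libraries. They numbered 526 of 550587 genome-wide junctions, that is, junctions outside chromosome 15, chromosome M, chromosome Y and the immunoglobulin loci. The window was chosen by its junction rate in DMSO, which was higher in AID-KO than in WT libraries, so those values are given as a description with no test.

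The libraries came from CH12F3, cultured B-lymphoma cells of the mouse that undergo class switching when stimulated. LAM-HTGTS, a sequencing assay, had mapped where a fixed bait break joined the rest of the genome. Every culture, controls included, had received anti-CD40, IL-4 and TGF-beta for 72 h. The backgrounds were AID-KO (12 libraries), Lig4-KO (15), WT plus idelalisib (15) and WT (18). Each was split into valemetostat, tazemetostat and DMSO, with 3, 4 and 5 libraries in AID-KO, 5 of each in Lig4-KO and in WT plus idelalisib, and 8, 5 and 5 in WT. The labels give no doses, do not say whether a knockout line was 1 clone, and do not say whether numbered libraries were separate cultures, so p-values here measure the spread between libraries only.

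AID is the cytosine deaminase that starts class switching and somatic hypermutation, and it also deaminates transcribed genes outside the antibody loci. DNA ligase 4 seals breaks in classical end joining, and without it breaks are joined by alternative routes. Idelalisib inhibits the PI3K delta kinase, and such inhibition is known to raise AID expression in B cells. Tazemetostat inhibits EZH2, the methyltransferase that writes the repressive mark H3K27me3, and valemetostat inhibits both EZH1 and EZH2.

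Libraries listed 7419 to 22089 junctions outside Lig4-KO and 35258 to 56900 in Lig4-KO. As a check of the labels, junctions in the Igh locus made up 0.00747% to 0.0628% of all junctions in AID-KO libraries, against 1.09% to 3.65% in WT libraries. Read names placed the libraries in 6 sequencing runs. AID-KO libraries lay in runs 3 and 4, Lig4-KO in run 5, WT plus idelalisib in runs 2 and 6, and WT in runs 1 and 2. WT therefore shared no run with AID-KO or Lig4-KO, and only run 2 with WT plus idelalisib, in valemetostat. In all other comparisons of a background with WT, background and run cannot be told apart.

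No mm9 gene annotation was used, so genes are placed only by their spacing and order in the RefSeq table of GRCm38.p6. In Lig4-KO cells, the 3 densest kilobases across the window and the 1 Mb after it, each at least 10 kb from a denser one, started at 95463000, 96024000 and 96073000. The second and the third lay 561 and 610 kb from the first, and in RefSeq the starts of the histone genes H2ac21 and H3c13 lie 561 and 610 kb from the start of Mcl1. These were the histone genes nearest by spacing, matched after the dense kilobases were seen. Mcl1 was set in advance as the gene at the first dense kilobase, and no other gene was tried in its place. On that assumption the dense kilobase of the window lies by spacing at Mcl1, which encodes an anti-apoptotic BCL2-family protein. Later mentions of Mcl1 rest on the same assumption. In the same table the protein-coding genes just before Mcl1 are Arnt, Ctsk, Ctss, Hormad1, Golph3l and Ensa, in that order. Arnt encodes the dimer partner of the HIF and AHR transcription factors, and Ctsk and Ctss encode lysosomal cysteine proteases. Adamtsl4, Ecm1 and Tars2 follow Mcl1. The 250 bases before the Mcl1 start (RefSeq, GRCm38.p6, chromosome 3, plus strand) are shown because the densest 10 kb of the window lies there by spacing, and the motif AGC, the core of sites that AID prefers, is in capitals on either strand (AGC or GCT).
Mcl1 promoter: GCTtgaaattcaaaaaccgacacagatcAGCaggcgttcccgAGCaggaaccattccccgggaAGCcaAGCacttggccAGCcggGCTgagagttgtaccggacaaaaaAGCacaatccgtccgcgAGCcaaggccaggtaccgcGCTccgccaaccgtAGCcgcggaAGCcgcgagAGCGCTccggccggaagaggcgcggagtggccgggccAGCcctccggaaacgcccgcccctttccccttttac
These bases held AGC on either strand 15 times, against a median of 9 over 27025 promoters of the same length, of which 9.82% held at least as many. The longer motif AGCT, which reads alike on both strands, overlaps AGC and was not in these letters, while 70.0% of promoters held it. G and C made up 64.4% of these bases, against a median of 52% over the promoters, and the motif count was not adjusted for this. These matches describe the letters only.

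AID-KO libraries had the highest junction rates in the window in every treatment. Rates are junctions per 10000 genome-wide junctions of the same library. In valemetostat the 3 AID-KO libraries had rates of 21.4, 18.6 and 15.1, against a lowest rate of 0, a median of 5.23 and a highest of 10.2 in the 8 WT libraries. In tazemetostat the 4 AID-KO libraries had rates of 32.0, 28.6, 35.5 and 37.1, against 6.74, 1.88, 11.4, 5.90 and 7.44 in WT libraries. In both treatments every AID-KO library lay above every WT library.

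**Figure D1:**
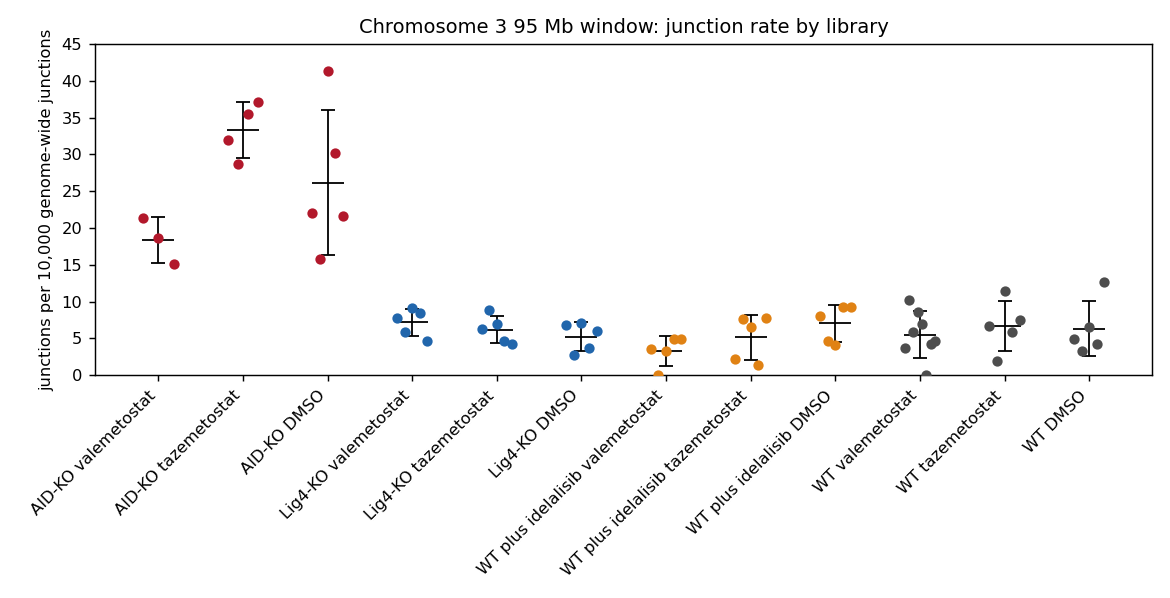
Junctions of the chromosome 3 95 Mb window per 10000 genome-wide junctions (vertical axis) for each of the 60 libraries (points), by group. Bars give the group mean and its SD. All 12 AID-KO points lie between 15.1 and 41.3, and the highest of the other points, a WT DMSO library, lies at 12.7.

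AID-KO averaged 18.4 ± 3.12 in valemetostat, against 5.52 ± 3.16 in WT (SD, n = 3 and 8), a difference of 12.9 and a ratio of 3.33. The two-sided exact permutation test gave p = 0.00606, the smallest this design allows, and 0.0238 after Benjamini-Hochberg adjustment over 6 comparisons of backgrounds with WT. On the log2(rate + 0.5) scale that call was lost (exact permutation p = 0.0424, adjusted 0.127). In tazemetostat AID-KO averaged 33.3 ± 3.77, against 6.68 ± 3.42 in WT (SD, n = 4 and 5), a difference of 26.6 and a ratio of 4.98. The exact permutation test gave p = 0.00794, again the smallest possible, and 0.0238 adjusted. Counted against all junctions, the differences came to 8.27 in valemetostat and 12.3 in tazemetostat, with the same p-values. Both designs were at their limit, and without any 1 AID-KO library the adjusted exact p was above 0.05, as it was without any 1 WT library in tazemetostat, at differences of 25.3 to 28.2 in tazemetostat and 11.4 to 14.5 in valemetostat.

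The DMSO libraries chose the window. They had rates of 22.1, 15.7, 41.3, 30.1 and 21.6 in AID-KO and of 4.90, 3.25, 6.62, 4.28 and 12.7 in WT. The AID-KO mean was 26.2 ± 9.87 and the WT mean 6.35 ± 3.75 (SD, n = 5 each). The highest AID-KO rate came from the library with the fewest junctions of that background (10845), where 20 junctions lay in the window.

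The window was also set against the rest of the genome by limma, with voom weights, over the 526 windows of 1 Mb that had a mean of at least 5 junctions per library. The log2 fold of AID-KO over WT was 1.77 (SE 0.36, limma adjusted p = 0.00104) in valemetostat, where 0.380% of windows were called higher, and 2.22 (SE 0.35, limma adjusted p = 2.35e-06) in tazemetostat, where 0.380% were called higher as well. In both treatments it ranked first of the 526 windows, which did not include the 94 Mb window next to it. Complete separation of AID-KO above WT was found in 0.760% of windows in valemetostat and in 1.90% in tazemetostat. The next highest windows were chromosome 8 at 125 Mb in valemetostat (1.41) and chromosome 5 at 115 Mb in tazemetostat (1.55), so a different window came next in each treatment. In DMSO, the contrast behind the choice, the log2 fold was 1.97, where 0.380% of windows were called higher, and the chromosome 6 window at 126 Mb followed with 1.54. Of the 2.28% of windows called lower there, the lowest log2 folds were those of chromosome 7 at 52 Mb (-1.96) and chromosome 17 at 34 Mb (-1.87).

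**Figure D2:**
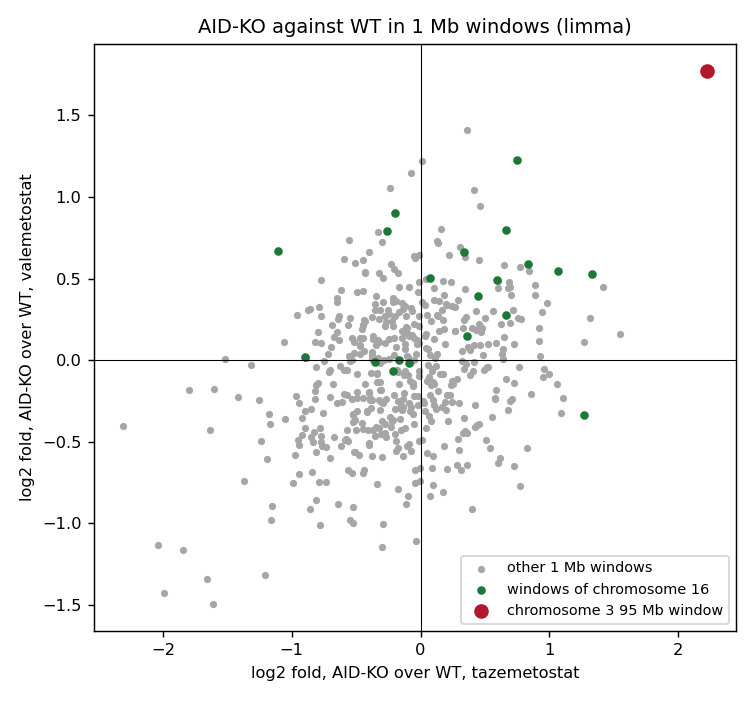
Log2 fold of AID-KO over WT from limma for 526 windows of 1 Mb, with tazemetostat on the horizontal and valemetostat on the vertical axis. The chromosome 3 95 Mb window (large point) lies apart at 2.22 and 1.77, and the windows of chromosome 16 are drawn in green.

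Pooled over libraries, the AID-KO rate of all chromosome 3 was 1.13 times that of WT, and 1.10 times without the window. Among chromosomes, 16 had the highest AID-KO to WT ratio (1.42) and 12 the lowest (0.778). Over the 12 group means, the windows most like this one among 525 others were chromosome 16 at 97 Mb and at 5 Mb (Spearman rho 0.90 each) and chromosome 14 at 48 Mb (0.79). These correlations are a description over groups that share libraries and depth. In absolute rate the likeness was small, since the chromosome 16 window at 97 Mb averaged 9.44 in AID-KO and 6.63 in WT.

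Within AID-KO cells the inhibitors were compared with each other, since DMSO libraries entered the choice of the window. All 3 valemetostat libraries lay below all 4 tazemetostat libraries, with a mean difference of -14.9 (ratio 0.552). The exact permutation test gave p = 0.0286, the smallest possible here, and 0.190 after adjustment over 8 comparisons within backgrounds. Such complete separation downward was found in 3.23% of windows. In limma the log2 fold was -0.87 (SE 0.30, limma adjusted p = 0.630). No window was called by limma in that comparison (0.00%), and the limma trend fit also called 0. An unadjusted limma p under 0.05 was found in 29 of the 526 windows, a threshold that some windows pass by counting error alone. The difference between this fold and that in WT cells was -0.45 (limma adjusted p = 0.962).

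The 2 inhibitors lay in separate runs. The 3 valemetostat libraries were in run 3 with 1 AID-KO DMSO library, which had 21.6. The 4 tazemetostat libraries were in run 4 with the other 4 AID-KO DMSO libraries, which had 15.7 to 41.3. Genome-wide junctions made up 61.8% to 70.6% of all junctions in AID-KO libraries of run 3, against 44.7% to 55.7% in those of run 4. Counted against all junctions the difference between valemetostat and tazemetostat came to -4.64. Treatment and run cannot be told apart here. As a description, the valemetostat mean (18.4) had a ratio of 0.702 to that of DMSO (26.2) and the tazemetostat mean (33.3) one of 1.27, and in both cases the libraries overlapped.

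The junctions of AID-KO cells were spread along the first 600 kb of the window, a cut set after the profile was seen. That stretch (chr3:95000000-95599999) held 240 of 261 AID-KO junctions (92.0%), against 49 of 73 in WT (67.1%). The pooled rate there was 22.6 in AID-KO and 4.17 in WT, a ratio of 5.42. By treatment the ratio was 4.01 in valemetostat, 7.29 in tazemetostat and 5.60 in DMSO. In every AID-KO library at least 84.2% of the window's junctions lay in that stretch. In the last 400 kb the pooled rate was 1.98 in AID-KO and 2.04 in WT, a ratio of 0.968. No part of this profile was tested, since the cut follows the values.

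**Figure D3:**
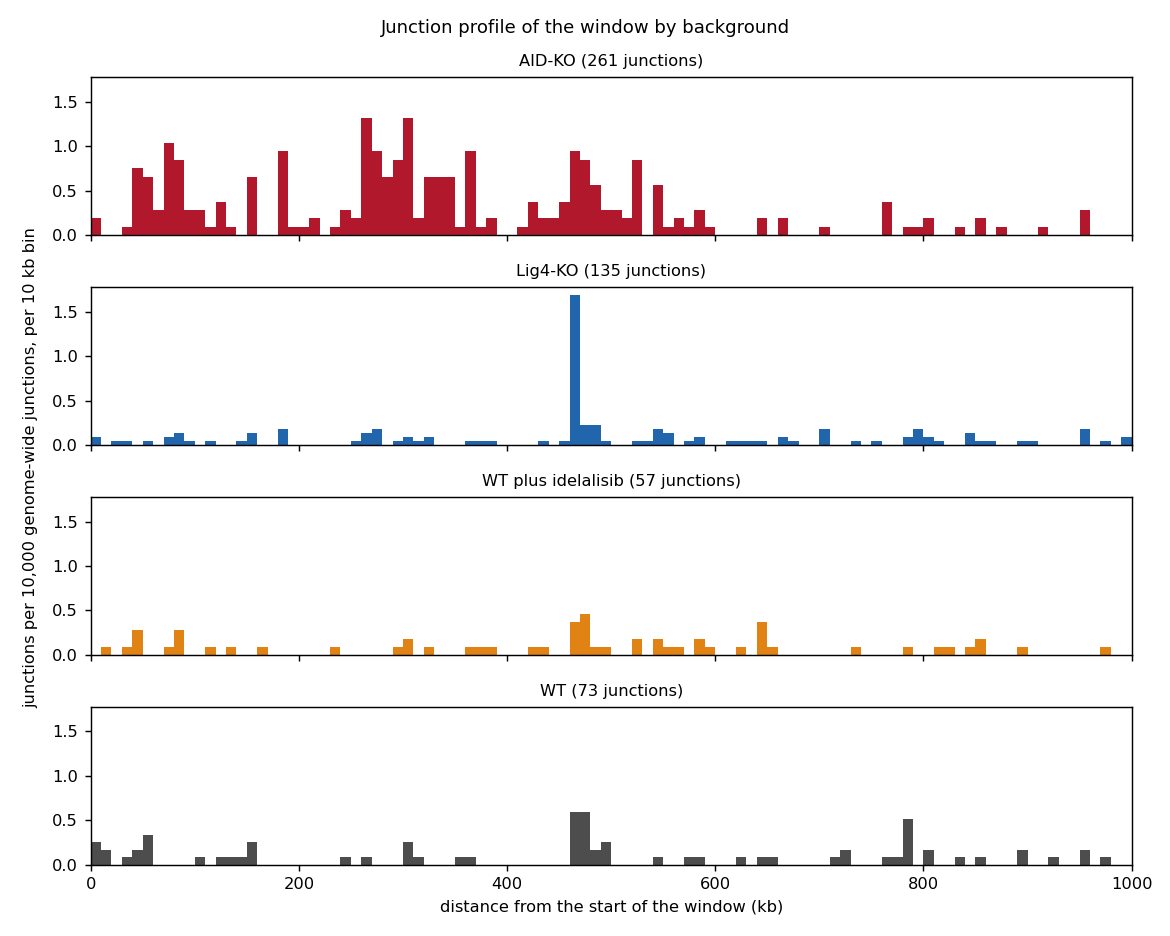
Junctions per 10000 genome-wide junctions in each 10 kb bin (vertical axis) against distance from the start of the window in kb, pooled per background in 4 panels on 1 scale. AID-KO junctions are spread over the first 600 kb, where some bins are empty, while 37 of 135 Lig4-KO junctions fall in the bin at 460 kb.

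The step at the far side was seen in 100 kb bins. AID-KO had 44, 27, 49, 51, 41 and 28 junctions in the first 6 of them and 4, 7, 6 and 4 in the last 4. Before the window the change was less sharp. The 100 kb before it held 16 AID-KO junctions (1.51 per 10000) and 4 WT junctions (0.341 per 10000), with 8 in valemetostat, 6 in tazemetostat and 2 in DMSO among the AID-KO ones. The 1 Mb window before, at 94 Mb, had a pooled rate of 6.50 in AID-KO and 3.58 in WT. By treatment its pooled rate was 7.997 in AID-KO and 2.19 in WT in valemetostat (ratio 3.66), 6.44 and 5.35 in tazemetostat (1.204), and 4.87 and 3.79 in DMSO (1.28). In valemetostat this ratio was no lower than that of the mean rates of the 95 Mb window (3.33), and it was not tested. Its mean tally was below the limma filter, so it was not among the windows ranked. The 1 Mb window after, at 96 Mb, had 3.86 in AID-KO and 5.70 in WT, and limma did not call it in AID-KO against WT in either inhibitor (adjusted p = 0.860 in valemetostat and 0.498 in tazemetostat).

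**Figure D4:**
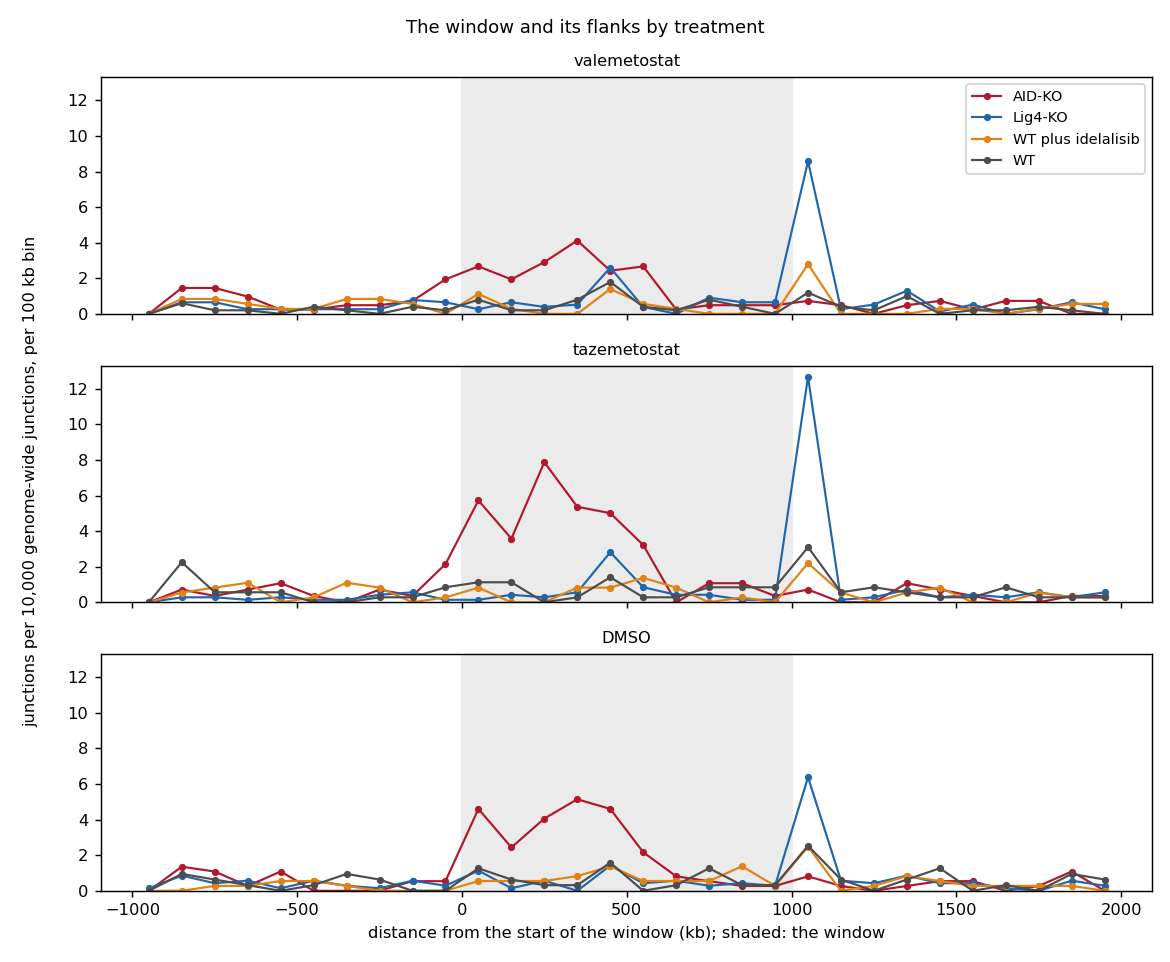
Pooled junctions per 10000 genome-wide junctions in 100 kb bins (vertical axis) against distance from the start of the window in kb, by background (lines) and treatment (panels), with the window shaded. The AID-KO line is raised from 0 to 600 kb in all 3 panels, and the Lig4-KO line peaks in the bin that starts at 1000 kb.

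No single site carried the AID-KO junctions. They fell in 63 of the 100 bins of 10 kb, and the fullest bin held 5.36% of them. The median gap between neighbouring AID-KO positions in the first 600 kb was 945 bp. The spread was not even, since 34.3% of these gaps were within 100 bp and the largest was 34552 bp. Leaving out the bin with the most junctions over all libraries gave an AID-KO to WT ratio of 6.06 in the first 600 kb. That bin held 37 Lig4-KO and 10 AID-KO junctions, with an AID-KO to WT ratio of 1.58. Leaving it out could therefore only raise the ratio, and it does not bear on the spread of AID-KO junctions. The fullest AID-KO bins, with 14 junctions each, were not left out. The 5 fullest bins over all libraries were chr3:95460000-95469999 (58 junctions), chr3:95470000-95479999 (26), chr3:95300000-95309999 (21), chr3:95260000-95269999 (18) and chr3:95080000-95089999 (15).

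These bins differed in which background filled them. The bin at 95300000 had 14 AID-KO and 3 WT junctions, a pooled rate of 1.32 against 0.255. The bin at 95260000 had 14 AID-KO junctions and 1 WT junction. The bin at 95080000 had 9 AID-KO junctions and 0 in the 117464 genome-wide junctions of WT, which allows up to 3 by counting error. At the bin that lies by spacing at Mcl1, AID-KO had 10 junctions and WT 7, a pooled rate of 0.942 against 0.596. Over those 10 kb AID-KO and WT were closer than over the first 600 kb as a whole, but their junctions lay in different kilobases. The kilobase that starts at 95463000 had 2 AID-KO and 0 WT junctions, and that at 95464000 had 0 AID-KO and 6 WT. The kilobase at 95469000 had 6 AID-KO junctions and 1 WT junction.

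Strands in these bins were counted for AID-KO, with intervals that cover counting error only. The bin at 95260000 had 12 plus and 2 minus junctions (85.7% plus, 95% exact interval 57.2% to 98.2%). The bin at 95300000 had 3 plus and 11 minus (21.4%, 4.66% to 50.8%), and that at 95080000 had 1 plus and 8 minus (11.1%, 0.281% to 48.2%). The bin at 95460000 had 8 plus and 2 minus (80.0%, 44.4% to 97.5%), and that at 95470000 had 2 plus and 7 minus (22.2%, 2.81% to 60.01%). The intervals of 3 of the 5 bins included 50%. They count each junction as separate, although the 14 at 95260000 lay at 11 distinct combinations of position and strand. In the bins whose intervals left out 50%, the few junctions of other backgrounds leaned the same way. The bin at 95260000 had 3 plus and 0 minus in Lig4-KO and 1 plus in WT. That at 95080000 had 0 plus and 3 minus in Lig4-KO, and the same in WT plus idelalisib. Plus-strand junctions made up 46.0% of window junctions in AID-KO (95% exact interval 39.8% to 52.2%), 53.3% in Lig4-KO (44.6% to 62.0%), 54.4% in WT plus idelalisib (40.7% to 67.6%) and 52.1% in WT (40.0% to 63.9%).

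**Figure D5:**
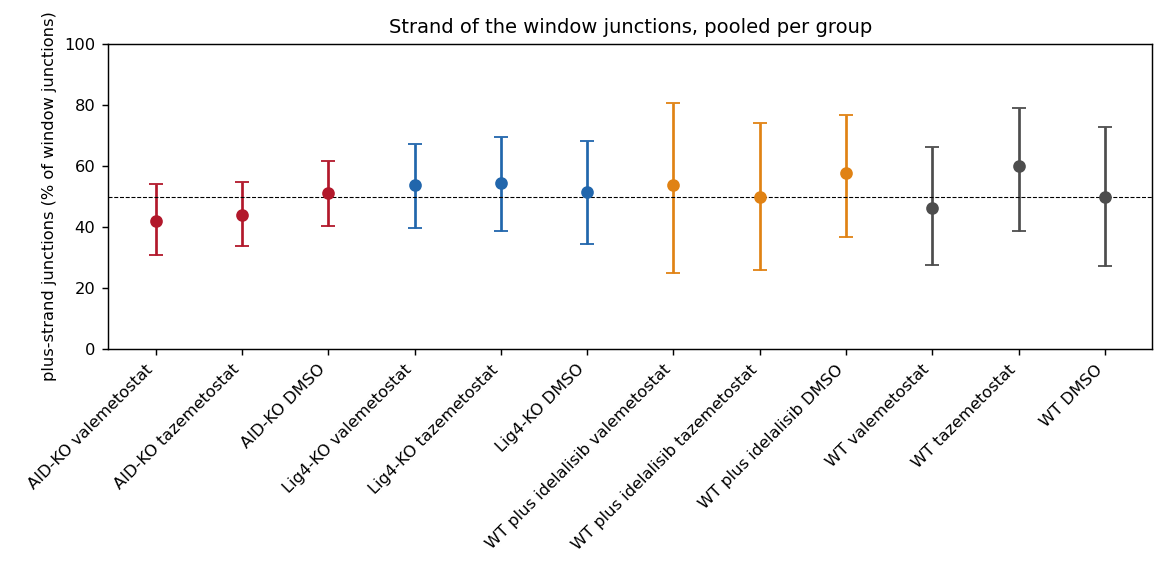
Plus-strand junctions as a percent of window junctions, pooled per group (points), with 95% exact binomial intervals, and a dashed line at 50%. The intervals of all 12 groups include 50%.

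Strand was compared with WT in 9 tests over libraries with at least 1 junction in the window. AID-KO minus WT was -3.75 percentage points in valemetostat, -7.15 in tazemetostat and 2.01 in DMSO. The exact permutation p-values of the 9 tests were 0.576 to 0.944, each 0.944 after adjustment, so no strand difference was detectable at these counts. The tazemetostat difference of AID-KO was made smaller in size by 1 WT library: without WT replicate 2, which had 1 junction in the window, it was -19.8 (exact permutation p = 0.0286, adjusted 0.257). With at least 5 window junctions per library it was -18.7 (exact permutation p = 0.0571, adjusted 0.514).

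Most positions were seen in 1 library. The 526 junctions lay at 438 distinct combinations of position and strand, of which 387 were seen in 1 library, 31 in 2 and 20 in 3 or more. The last group held 77 junctions (14.6%), 19 of the 20 spanned more than 1 run, and 18 included an AID-KO library. AID-KO libraries held 261 of the 526 window junctions, and no expected count of such positions was computed. No position was listed more than 1 time on the same strand in any library. The same held for all genome-wide junctions, so this is a trait of the deposited lists and not of the window.

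The position in the most libraries was 95084963 on the minus strand, with 2 AID-KO, 2 Lig4-KO and 2 WT plus idelalisib libraries. Position 95469201 on the plus strand was in 4 AID-KO libraries and 1 WT library, and 95473178 on the minus strand in 3 AID-KO, 1 WT plus idelalisib and 1 WT library. Position 95476510 on the plus strand was in 5 libraries spread over all 4 backgrounds. Among the positions in 3 or more libraries, 3 were seen in AID-KO alone and 1 in Lig4-KO alone. Those of AID-KO were 95265603 (plus) and 95330330 (minus), in 4 libraries each, and 95077736 (minus), in 3. That of Lig4-KO was 95844506 (minus), in 3 libraries. Within 100 bp of an AID-KO junction on the same strand were 37.8% of Lig4-KO, 43.9% of WT plus idelalisib and 53.4% of WT window junctions, and no expected share was computed.

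The deposited score of each junction, whose meaning is not stated in the sources used here, had a median of 60 in the window and 59 genome-wide in AID-KO. The medians were 65 and 61 in Lig4-KO, 59 and 58 in WT plus idelalisib, and 59 and 57 in WT.

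Lig4-KO cells did not differ detectably from WT cells in the window as a whole. In valemetostat the 5 Lig4-KO libraries had 7.76, 5.87, 9.13, 8.46 and 4.71, against a median of 5.23 in WT, a mean difference of 1.67 (exact permutation p = 0.318, adjusted 0.477). In tazemetostat they had 6.32, 8.85, 6.91, 4.69 and 4.21, against 6.74, 1.88, 11.4, 5.90 and 7.44 in WT, a difference of -0.48 (exact permutation p = 0.786, adjusted 0.786). Counted against all junctions, the differences were -1.18 in valemetostat (exact permutation p = 0.223, adjusted 0.268) and -2.16 in tazemetostat (exact permutation p = 0.0714, adjusted 0.143). Genome-wide junctions were 28.9% to 36.7% of all junctions in Lig4-KO libraries and 55.1% to 68.3% in WT libraries. The limma log2 folds were 0.41 (adjusted p = 0.557) and -0.19 (adjusted p = 0.832), in comparisons where 8.94% and 6.27% of windows were called higher. In DMSO the Lig4-KO libraries had 6.76, 2.81, 7.10, 3.69 and 5.94, a mean of 5.26 ± 1.91.

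The Lig4-KO profile had another shape. The bin at 95460000, which lies by spacing at Mcl1, held 37 of the 135 Lig4-KO junctions (27.4%), at 35 distinct combinations of position and strand. Of these, 20 were in the kilobase that starts at 95463000 and 11 in the next. The bin had 12 junctions in valemetostat and 18 in tazemetostat, with junctions in all 5 libraries of each, and 7 in DMSO, where 2 of 5 libraries had any and 1 library had 6. The pooled rate there was 1.69 in Lig4-KO and 0.596 in WT. The bin was picked for its count, so this difference was not tested.

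Lig4-KO cells had higher rates than WT just past the window. The first 100 kb of the 96 Mb window held 201 Lig4-KO junctions (9.20 per 10000), 8 AID-KO junctions (0.754 per 10000) and 25 WT junctions (2.13 per 10000). The pooled Lig4-KO to WT ratio of this stretch was 7.19 in valemetostat, 4.09 in tazemetostat and 2.52 in DMSO, with no test. For the whole 96 Mb window, limma gave a log2 fold of Lig4-KO over WT of 1.83 (adjusted p = 8.55e-06) in valemetostat and 1.11 (adjusted p = 0.0139) in tazemetostat. In these comparisons 8.94% and 6.27% of windows were called higher, and Lig4-KO and WT shared no run. In DMSO the whole 96 Mb window had 0.43 (limma adjusted p = 0.682). By spacing the first 100 kb of the 96 Mb window holds H2ac21 and H3c13, which encode core histones. The Lig4-KO to WT ratios and folds past the window use genome-wide junctions. These were 28.9% to 36.7% of all junctions in Lig4-KO libraries and 55.1% to 68.3% in WT libraries. Ratios against all junctions would therefore be smaller, and they were not computed for this stretch.

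Within Lig4-KO, all 15 libraries were in 1 run, so inhibitors and DMSO were compared within it. Valemetostat exceeded DMSO by 1.92 (exact permutation p = 0.159, adjusted 0.423) and tazemetostat exceeded it by 0.935 (exact permutation p = 0.429, adjusted 0.490). Valemetostat and tazemetostat differed by 0.989 (exact permutation p = 0.397, adjusted 0.490). None passed the threshold, and the libraries of the 3 treatments overlapped.

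WT cells with idelalisib did not differ detectably from WT without it either. In valemetostat the libraries with idelalisib had rates of 3.51, 0, 3.26, 4.93 and 4.88, a mean of 3.32 ± 2.01, against 5.52 ± 3.16 in WT (SD, n = 5 and 8). The difference of -2.20 was measured within run 2 (exact permutation p = 0.194, adjusted 0.3885). In tazemetostat the libraries with idelalisib had 2.27, 7.68, 6.60, 1.43 and 7.76, a difference from WT of -1.53 (exact permutation p = 0.563, adjusted 0.676). The limma log2 folds were -0.65 (adjusted p = 0.661) and -0.56 (adjusted p = 0.747), in comparisons where 2.09% and 0.760% of windows were called higher.

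Under idelalisib the valemetostat mean was below that of DMSO. Valemetostat averaged 3.32 ± 2.01, against 7.07 ± 2.52 in DMSO (SD, n = 5 each), where the libraries had 8.10, 4.68, 4.07, 9.28 and 9.23. The difference was -3.75 (exact permutation p = 0.0476, adjusted 0.190), and the groups overlapped and lay in separate runs. Tazemetostat differed from DMSO by -1.92 (exact permutation p = 0.325, adjusted 0.490) within run 6, and valemetostat from tazemetostat by -1.83 (exact permutation p = 0.294, adjusted 0.490). In WT without idelalisib, valemetostat minus tazemetostat was -1.16 (exact permutation p = 0.544, adjusted 0.544). Rates in these backgrounds rest on few junctions: 13 to 28 per group, 0 to 9 per library, and 2 libraries had 0, which allows up to 3 junctions by counting error alone.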

How the data were processed

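LAM-HTGTS junctions had been mapped to mm9, per the submitters' processing notes. No aligner or junction filter is named in the sources. The deposited files list 1 junction per line, with a position, a strand and a deposited score (16 to 222) of unstated meaning. Positions and strands are the authors' deposited values. Window junctions were divided by genome-wide junctions (550587 of 1219247) and given per 10000, which removes bait-chromosome and antibody-locus junctions and moves with their share. Mean rates were tested by exact permutation, two-sided, adjusted by Benjamini-Hochberg over 8, 6 or 9 comparisons with a threshold of 0.05 (Python 3.11.15, scipy 1.17.1). All 60 libraries entered 1 limma voom fit over 1 Mb windows (limma 3.58.1, R 4.3.3). Both tests were checked on simulated data. The window, bins and lists were chosen with earlier results of these data known. The regions named are the window, its neighbours, the 5 fullest 10 kb bins, positions in 3 or more libraries up to 10, the 3 most similar windows and the scale windows. Of positions in 3 or more libraries, those seen in 1 background alone were singled out after their values were seen. The 600 kb cut was also set after the values were seen. Same-numbered libraries of the groups compared correlated at -0.09 to 0.12, so numbers were not used as pairs. Alternatives covered the denominator, window edges, repeated positions, filters, scaling, the log scale and each library in turn.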

Additional observations from a re-analysis of the deposited data

Results flagged for a closer look

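In tazemetostat-treated WT cells, replicate 2 stood apart from the other 4 libraries in the plus-strand percent of window junctions, at 0%. It had 1 junction in the window, so the percent rests on that junction alone.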

How the results depend on the processing

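Counting identical junctions 1 time could change nothing, since none occurred within a library, in the window or genome-wide. The AID-KO over WT rate difference kept its direction under all alternatives run. On the log2(rate + 0.5) scale that in valemetostat was 1.997 (adjusted exact p = 0.127). Without 1 library it was 25.3 to 28.2 in tazemetostat, adjusted p above 0.05 for all 9 libraries, and 11.4 to 14.5 in valemetostat, above 0.05 for the 3 AID-KO libraries, since fewer libraries cannot reach a smaller p. The limma calls of AID-KO over WT held without any 1 library. With the replicate number as a block, the rate differences were 26.8 and 11.8 (adjusted p = 0.375 and 0.5), where 4 and 3 pairs cannot pass. The block gave limma log2 folds of 1.33 for AID-KO over WT in valemetostat (adjusted p = 0.0688), -0.0603 for Lig4-KO over WT in valemetostat and 0.0307 for valemetostat over tazemetostat in WT, whose rate difference became 0.375. With the block limma called 2 windows for AID-KO over WT in valemetostat and 1 for valemetostat over tazemetostat in WT.

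Widening the window by 100 kb on each side took in the Lig4-KO junctions just past it: Lig4-KO minus WT became 9.46 in valemetostat (adjusted exact p = 0.00466) and 8.42 in tazemetostat (adjusted exact p = 0.0238), and valemetostat minus tazemetostat in Lig4-KO became -2.61. With all junctions as denominator, Lig4-KO minus WT in valemetostat was -1.18, and on the log2 scale that in tazemetostat was 0.028. With at least 5 window junctions per library, plus-strand differences from WT were -9.93 points for Lig4-KO in tazemetostat and 1.42 for AID-KO in valemetostat. The cause of these changes was not tested.

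Without 1 library, ranges that crossed 0 were: valemetostat minus tazemetostat in WT, -2.36 to 0.0258; Lig4-KO minus WT in tazemetostat, -1.68 to 0.704 (limma -0.40 to 0.026); and limma valemetostat over tazemetostat under idelalisib, -0.76 to 0.0084. For plus-strand points against WT they were -3.74 to 6.18 for AID-KO DMSO, -7.78 to 6.66 for Lig4-KO DMSO and -2.38 to 10.7 for idelalisib DMSO. In tazemetostat they were -11.0 to 6.85 for Lig4-KO and -15.7 to 9.27 for idelalisib. In valemetostat they were -11.4 to 5.23 for AID-KO, -1.76 to 14.9 for Lig4-KO and -1.68 to 21.2 for idelalisib.

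Counts of windows called by limma moved most in small lists. Without 1 library they were 0 to 1 for AID-KO valemetostat against tazemetostat and 3 to 12 for AID-KO against WT in tazemetostat (3 without AID-KO replicate 1, against 10). They were 0 to 2 for Lig4-KO tazemetostat against DMSO, 0 to 2 for valemetostat against tazemetostat under idelalisib and 0 to 5 for that in WT. They were 6 to 13 for idelalisib against WT in valemetostat and 2 to 6 in tazemetostat. A mean tally of at least 2 called 2 windows for valemetostat against tazemetostat under idelalisib, 0 for that in WT and 7 for idelalisib against WT in valemetostat. No filter called 2, 2 and 0 for valemetostat against tazemetostat under idelalisib, in AID-KO and in WT, and 8 for idelalisib against WT in tazemetostat. TMM factors called 1 for Lig4-KO tazemetostat against DMSO and 2 for valemetostat against tazemetostat in WT. The limma trend fit called 8 for the same comparison and 27 for Lig4-KO against WT in tazemetostat. Depth limits single bins and libraries, many of which hold fewer than 10 junctions.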
